A study of Rattus norvegicus with 16 samples.

Results

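The consensus SRF regions nearest to Nr4a1, Nr4a3, Dusp5, Homer1 and Arc were followed across 2 stages of the oligodendrocyte lineage in rat. These genes encode a pair of orphan nuclear receptors and 3 effector proteins of activity-regulated signalling. All rows of the authors' consensus annotation that carry one of these gene names were taken, which gave 5 regions of 848, 1 for each gene. The table gives their Ensembl identifiers as ENSRNOG00000007607 (Nr4a1), ENSRNOG00000005964 (Nr4a3), ENSRNOG00000014061 (Dusp5), ENSRNOG00000047014 (Homer1) and ENSRNOG00000043465 (Arc). The regions were selected on their peaks: each was chosen by a call in at least 1 SRF library, so the calls, fold enrichments and summits given here are a description with no test.

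Serum response factor (SRF) was immunoprecipitated from the chromatin of primary wild-type (WT) rat brain cells and the recovered DNA was sequenced. Oligodendrocyte precursors were isolated by immunopanning and grown for 6 days in proliferation medium before either stage was taken. Oligodendrocytes (OL) came from cells that then spent 3 days in differentiation medium before fixation, with 3 SRF libraries (replicates 1, 2 and 4) and 1 IgG control. Oligodendrocyte precursor cells (OPC), fixed without that step, gave 4 SRF libraries (replicates 1 to 4) and 1 IgG control. Replicates were separate cell preparations, each split between the stages. The sources used here give neither the ages nor the number of the animals. SRF chromatin does not measure marker expression, so the identity of the cultures is taken from the labels.

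SRF binds DNA at a short element known as the CArG box, in which a run of A and T lies between CC and GG. It acts either with ternary complex factors, ETS proteins driven by ERK signalling that bind beside it, or with the actin-sensing MRTF cofactors. Genes turned on within minutes by growth factors or neuronal activity are classical targets of the first kind. Nr4a1 and Nr4a3 encode receptors without a known physiological ligand that act as transcription factors. Dusp5 encodes a nuclear phosphatase that switches off ERK, Homer1 a scaffold of metabotropic glutamate receptors, and Arc a protein that controls glutamate receptor traffic at synapses. The roles of Homer1 and Arc are known mostly from neurons.

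The promoters of Dusp5 and Nr4a1 are shown because the SRF peaks at these genes recurred between libraries and carry a promoter annotation, and because each promoter held a match to the CArG box. RefSeq promoters of assembly GRCr8, from 250 bases before to 50 after the annotated start, were available for 3 of the 5 genes (Nr4a1, Dusp5 and Homer1). The 250 bases before the start are shown 5′ to 3′ on the + strand, at chr1:262543524-262543773 for Dusp5 and chr7:134259888-134260137 for Nr4a1, and capitals mark the best matches to the CArG box.
Dusp5: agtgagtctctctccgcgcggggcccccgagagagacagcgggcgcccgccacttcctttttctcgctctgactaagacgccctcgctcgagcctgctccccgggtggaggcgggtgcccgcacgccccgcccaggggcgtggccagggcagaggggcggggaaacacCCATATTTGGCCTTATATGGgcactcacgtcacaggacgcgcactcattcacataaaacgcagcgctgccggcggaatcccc
Nr4a1: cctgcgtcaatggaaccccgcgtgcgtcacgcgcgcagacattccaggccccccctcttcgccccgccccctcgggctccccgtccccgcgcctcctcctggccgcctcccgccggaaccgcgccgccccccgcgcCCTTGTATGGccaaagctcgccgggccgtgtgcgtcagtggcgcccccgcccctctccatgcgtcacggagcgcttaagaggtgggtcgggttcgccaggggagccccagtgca

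The Dusp5 promoter held 2 full CArG boxes that abut each other, the first 82 to 73 and the second 72 to 63 bases before the RefSeq start. Of 33469 RefSeq promoters of the same length, 1.64% held at least 1 full CArG box and 7 (0.0209%) held 2 or more. The Nr4a1 promoter held no full box and 1 match with 1 mismatch, 114 to 105 bases before the start, and 21.3% of promoters held a match with up to 1 mismatch. The Homer1 promoter held 0 matches of either kind. The CArG box was searched once, since its reverse complement has the same form, and the other motifs on both strands.

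Short elements of 2 other factor families were searched in the same windows. The core bound by ETS proteins was searched first as GGAAG, present in 70.1% of all promoters, and found 1 time at Dusp5, 1 time at Homer1 and 0 times at Nr4a1. A second, stricter form of the same core, CCGGAA, was present in 15.0% of promoters and found 1 time each at Dusp5 and Nr4a1 and 0 times at Homer1. The core of the cAMP response element, searched as TGACG, was found 4 times at Nr4a1, 1 time at Dusp5 and 0 times at Homer1. Of all promoters 21.2% held it at least once and 4.96% held it 2 or more times. The share with 4 or more was not counted. None of these matches overlapped another in the 3 windows. The windows are on GRCr8 and the peaks on Rnor_6.0, so no match is placed within a peak, and how far the RefSeq start of Nr4a1 lies from its peak was not tested.

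The 5 regions differed in how widely a peak was called. In Rnor_6.0, the Dusp5 region lay at chr1:274245001-274245238, centred 65 bp upstream of the transcription start site (TSS), and the Homer1 region at chr2:22908691-22908943, centred 1419 bp upstream. Both were called in 5 of the 7 SRF libraries, namely OL replicate 1 and all 4 OPC replicates. The Nr4a1 region (chr7:142912085-142912316) was called in OL replicate 1 and in OPC replicates 1 and 4. Of all 848 regions, 216 (25.5%) were called in at least 5 libraries and 363 (42.8%) in at least 3. The Arc region (chr7:115911440-115911512, centred 954 bp upstream) was called in OL replicate 1 alone, and the Nr4a3 region (chr5:63779878-63779962, between genes, centred 1881 bp upstream) in OPC replicate 4 alone. Thus Nr4a3 had 0 calls without OPC replicate 4, and Arc had 0 without OL replicate 1. Of the 372 regions of the series called in a single library, 256 were called in OPC replicate 4 and 57 in OL replicate 1.

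The annotation calls the Dusp5, Homer1, Nr4a1 and Arc regions promoter. At Nr4a1 the same table puts the region 6442 bp downstream of the TSS used for the distance, and at Homer1 it puts it 1419 bp upstream. Which transcript start gave the promoter label at these genes is not given in the sources used here. Neither IgG library had a peak in any of the 5 regions. The IgG library of OL held 1551203 tags and 24 peaks, fewer than any SRF library, and that of OPC 11308414 tags and 117 peaks, and at the depth of the OL one the lack of a call does not show that background was absent. The nearest IgG peak on the same chromosome lay 8775 kb from the Dusp5 region and 26455 to 120588 kb from those of Homer1, Arc and Nr4a1, and chromosome 5, which carries Nr4a3, had none. The nearest other consensus region was 188 kb away at Arc, 195 kb at Dusp5, 251 kb at Nr4a3, 1209 kb at Nr4a1 and 8207 kb at Homer1. This distance was not taken over all 848 regions. With a peak in at least 2 SRF libraries and in no IgG library, the regions of Dusp5, Homer1 and Nr4a1 counted as reproducible sites, as did 448 of all 848 regions (52.8%).

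Summits were compared where several libraries had a peak. The peaks compared all overlap 1 region of 232 to 253 bp, which limits how far apart their summits can lie. The spread of summits in other regions was not taken. At Nr4a1 the 3 summits lay within 4 bp, 6432 to 6436 bp downstream of the annotated TSS. At Homer1 the summits of OL replicate 1 and OPC replicates 1, 2 and 4 lay 1435 to 1440 bp upstream, and that of OPC replicate 3 lay 1398 bp upstream. At Dusp5 the summit of OL replicate 1 lay 56 bp upstream, and those of OPC replicates 1 to 4 lay 20, 24, 30 and 38 bp upstream.

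**Figure D1:**
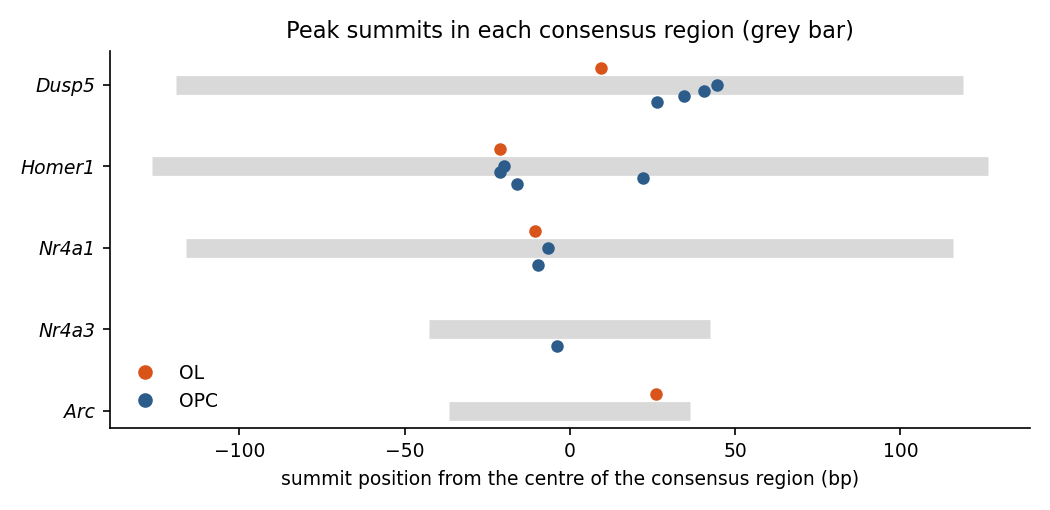
Position of each called peak's summit, in bp from the centre of the consensus region (grey bar, drawn to its length), for OL and OPC libraries. The Nr4a1 summits span 4 bp, the Dusp5 summits 35 bp and the Homer1 summits 43 bp.

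The peak at Dusp5 ranked high among the peaks of its libraries and those at Arc and Nr4a3 ranked low. The fold enrichment is the authors' own value from MACS2, and it serves only to rank peaks of 1 library. At Dusp5 it was 19.5 in OL replicate 1 (rank 80 of 436 peaks), and 13.96, 11.2, 12.98 and 19.2 in OPC replicates 1 to 4 (ranks 107 of 432, 66 of 232, 105 of 383 and 145 of 714). Each Dusp5 peak therefore stood in the upper 28.4% of its library's list. At Homer1 it was 7.60 in OL replicate 1 (rank 300), and 9.38, 11.2, 10.4 and 10.0 in OPC replicates 1 to 4 (ranks 207, 66, 160 and 329). The Homer1 peak thus lay below the median of its library in OL replicate 1 (10.1) and above it in all 4 OPC replicates (8.60 to 9.42).

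The rank of the Nr4a1 peak within its list differed between libraries. The peak had a fold enrichment of 8.90 in OL replicate 1 (rank 251), 5.44 in OPC replicate 1 (rank 385 of 432) and 16.6 in OPC replicate 4 (rank 180 of 714). The single peak of Arc had 6.06 (rank 374 of 436) and that of Nr4a3 5.62 (rank 634 of 714), and both lay below the medians of their lists, 10.1 and 9.42. The least certain calls, by the −log10 of the authors' q-value, were Nr4a1 in OPC replicate 1 (3.03), Nr4a3 (3.35) and Arc (3.86). All 15 peaks of the 5 regions kept their call at a q-value of 0.001.

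**Figure D2:**
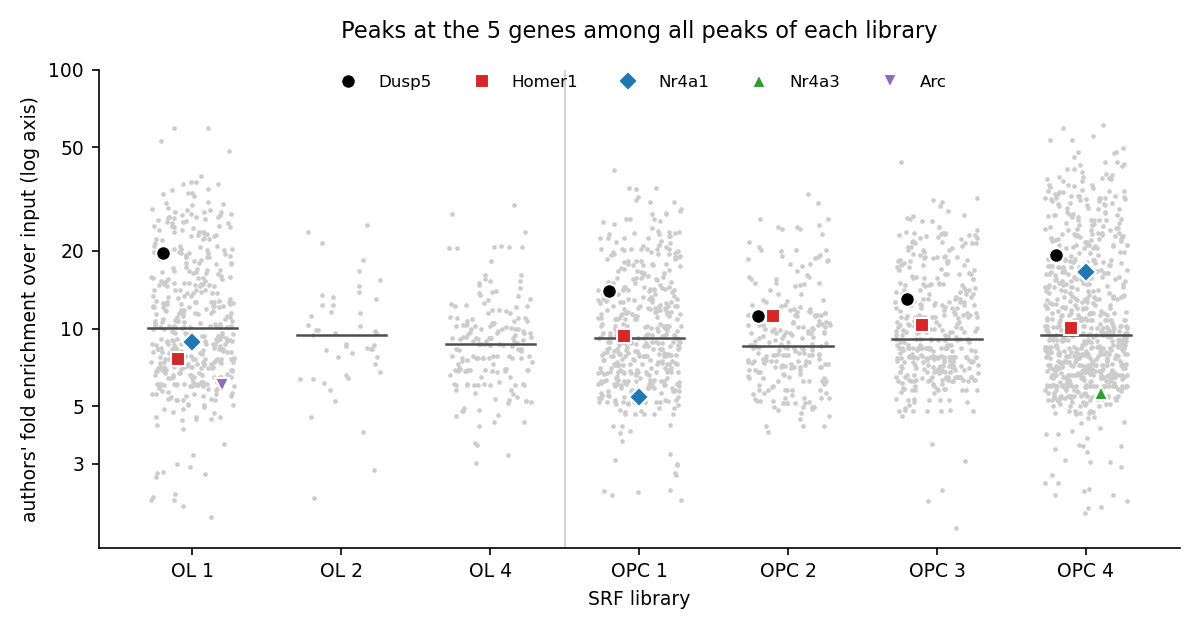
The authors' fold enrichment over input on a log axis for every peak of each SRF library (grey points, with the library's median as a line) and for the peaks at the 5 genes. Dusp5 lies above the median line in each of the 5 libraries where it was called, from 11.2 to 19.5, and Arc and Nr4a3 lie below it at 6.06 and 5.62.

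Depth differed between the libraries. The SRF libraries held 2394854 to 12103611 tags in OL and 9054483 to 20303444 in OPC. The shallow OL replicates 2 and 4 had peaks at 0 of the 5 regions, OL replicate 1 at 4, and the OPC replicates at 2 to 4. Of all 848 regions, 47 were called in OL replicate 2, 165 in OL replicate 4 and 422 in OL replicate 1. The OPC replicates had calls at 223 to 711 of them. In OL replicate 2 the regions that were called held at least 8 reads, with a median of 21, and in OL replicate 4 at least 5, with a median of 18. Dusp5 held 7 and 10 reads in these libraries, Homer1 11 and 6, Nr4a1 2 and 8, Nr4a3 5 and 1, and Arc 1 and 1. At this depth the lack of a call in either library does not show that SRF was absent.

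Dusp5 had the most reads in total. OL replicates 1, 2 and 4 held 52, 7 and 10 reads, which is 4.30, 2.92 and 2.97 RPM (reads per 1000000 tags of the library), and OPC replicates 1 to 4 held 37, 45, 26 and 46, or 2.98, 2.22, 2.22 and 5.08 RPM. The OL values lay within the range of the OPC values, and OPC replicate 4 was the highest library. OPC replicate 4 also had the largest share of its tags in all consensus regions, 0.379%, against 0.116 to 0.213% in the other OPC libraries and 0.187 to 0.217% in OL, and its part in the value was not tested.

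Homer1 had its highest and its lowest RPM in the shallow OL libraries. Its reads numbered 28, 11 and 6 in OL replicates 1, 2 and 4 (2.31, 4.59 and 1.78 RPM) and 32, 40, 21 and 30 in OPC replicates 1 to 4 (2.58, 1.97, 1.79 and 3.31 RPM). OL replicate 2 was the highest and OL replicate 4 the lowest of the 7 libraries. The 11 reads of OL replicate 2 carry an exact 95% Poisson interval of 5.49 to 19.7 reads, which is 2.29 to 8.22 RPM. This interval takes in the RPM of OL replicate 1 and of OPC replicates 1 and 4 and lies above that of the other 3 libraries.

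Nr4a1 held 16, 2 and 8 reads in OL replicates 1, 2 and 4 (1.32, 0.835 and 2.38 RPM) and 18, 29, 8 and 34 in OPC replicates 1 to 4 (1.45, 1.43, 0.683 and 3.76 RPM). OPC replicate 4 was the highest and OPC replicate 3 the lowest, so the spread within OPC covered all OL values. OPC replicate 2 had 29 reads at Nr4a1 and no peak. In that library, the deepest, the called regions held at least 17 reads, with a median of 42.

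Arc and Nr4a3 rested on single-digit counts everywhere. Arc held 8, 1 and 1 reads in OL replicates 1, 2 and 4 and 7, 2, 3 and 5 in OPC replicates 1 to 4. Nr4a3 held 7, 5 and 1 reads in OL and 4, 2, 2 and 7 in OPC. Nr4a3 had as many reads in OL replicate 1, where it was not called, as in OPC replicate 4, where it was, and Arc had 7 reads in OPC replicate 1 without a call against 8 in OL replicate 1 with one. Intervals here cover counting error only.

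**Figure D3:**
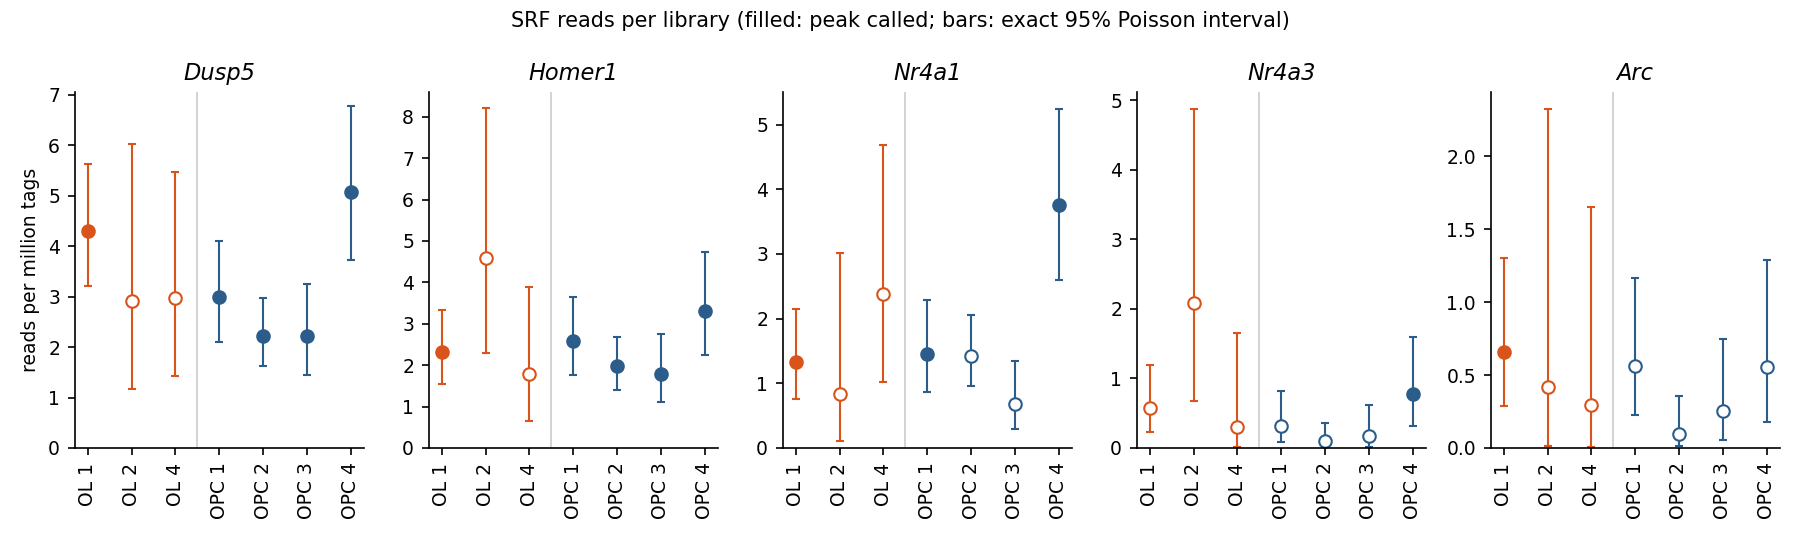
Reads per 1000000 tags (RPM) at each region in the 3 OL and 4 OPC SRF libraries, with exact 95% Poisson intervals and filled points where a peak was called. The OL and OPC points overlap at all 5 regions; OL replicate 2 lies above every OPC library at Homer1 (4.59) and Nr4a3 (2.09), as does OL replicate 1 at Arc (0.661).

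Levels were compared between genes after allowing for region length. The measure is the reads in a region divided by those expected if all tags of the library were spread evenly over the effective genome of the peak calls. The order by mean over the 7 libraries was Dusp5 (23.1 ± 7.61, SD, n = 7), Homer1 (17.7 ± 6.95), Nr4a1 (12.3 ± 7.71), Nr4a3 (9.69 ± 10.9) and Arc (7.00 ± 3.45). Neighbours in this order differed by less than their spread. Dusp5 exceeded Homer1 in 6 of 7 libraries, Homer1 exceeded Nr4a1 in 5, Nr4a1 exceeded Nr4a3 in 6, and Nr4a3 exceeded Arc in 2. Dusp5 exceeded Arc in all 7 libraries.

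By this measure the 5 regions spread over much of the range of the series. They ranked 161 (Dusp5), 236 (Homer1), 371 (Nr4a1), 508 (Nr4a3) and 682 (Arc) of 848 regions, whose median was 11.2. The 448 reproducible sites had a median of 15.7, and of their members Nr4a1 lay below it at 12.3. In OL the means were 24.2 ± 5.52 at Dusp5, 19.6 ± 10.1 at Homer1, 11.002 ± 5.73 at Nr4a1, 15.5 ± 15.2 at Nr4a3 and 7.93 ± 3.19 at Arc (SD, n = 3). In OPC they were 22.2 ± 9.65, 16.3 ± 4.66, 13.3 ± 9.70, 5.31 ± 4.74 and 6.31 ± 3.94 in the same gene order (SD, n = 4).

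The stage comparison asks whether SRF binding at a region differed between the OL and OPC libraries. The main edgeR fit did not pair libraries by preparation, and OPC replicate 3 had no OL partner. The SEs, intervals and edgeR p-values below come from that fit unless another setting is named. The regions of Dusp5, Homer1 and Nr4a1 had at least 10 reads in at least 3 libraries and entered the test over 557 regions, and those of Nr4a3 and Arc did not. None of the 3 passed (0 by edgeR's quasi-likelihood test at a Benjamini-Hochberg adjusted p below 0.05, 0 at an unadjusted p below 0.05, and 0 by DESeq2). Over all 557 regions 2.15% passed by edgeR (0.359% as higher in OL) and 21.9% had an unadjusted p below 0.05, and by DESeq2 7.55% of 556 passed. With the preparation as a block, 0 of the 3 and 0 of the 557 passed by edgeR, and 106 of the 557 had an unadjusted p below 0.05. In bulk chromatin, fewer cells with SRF bound and less binding per cell cannot be told apart.

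Dusp5 had the smallest p of the 3. Its normalised read counts, scaled by TMM to the other regions, were 41.7, 42.6 and 34.5 in OL replicates 1, 2 and 4 and 28.6, 40.7, 23.2 and 25.8 in OPC replicates 1 to 4. All OL values lay above those of OPC replicates 1, 3 and 4, while OPC replicate 2 lay among the OL values. The means were 39.6 ± 4.43 in OL and 29.6 ± 7.76 in OPC (SD over 3 and 4 libraries). The log2 fold change of OL over OPC was 0.44 ± 0.24 (SE), with a 95% interval of -0.09 to 0.98 and an edgeR adjusted p of 0.323. With 1 library left out at a time, the smallest edgeR p came without OPC replicate 2, the library that lay among the OL values. The log2 fold change was then 0.62, with an edgeR adjusted p of 0.121 and an unadjusted p of 0.0128. Without any other single library it was 0.35 to 0.51, with unadjusted edgeR p of 0.0905 to 0.324. With all libraries kept and only reproducible sites fitted, the Dusp5 log2 fold change was 0.50. The edgeR adjusted p was then 0.202 and the unadjusted p 0.0445. In that fit 99 of 430 sites had an unadjusted edgeR p below 0.05.

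At Homer1 the normalised counts were 22.5, 66.9 and 20.7 in OL replicates 1, 2 and 4 and 24.8, 36.2, 18.7 and 16.8 in OPC replicates 1 to 4. OL replicate 2 stood above all other libraries, and the other OL values lay inside the OPC range. The log2 fold change was 0.30 ± 0.42 (SE; 95% interval -0.64 to 1.24, edgeR adjusted p = 0.773), and it was -0.11 without OL replicate 2. The estimated fragment length in that library was 296 bp, against 72 to 86 bp in the other SRF libraries, and its part in the value was not tested.

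At Nr4a1 the normalised counts were 12.8, 12.2 and 27.6 in OL replicates 1, 2 and 4 and 13.9, 26.3, 7.13 and 19.1 in OPC replicates 1 to 4, and the groups overlapped throughout. The log2 fold change was -0.08 ± 0.47 (SE; 95% interval -1.13 to 0.97, edgeR adjusted p = 0.963). The sign of this value was positive by DESeq2 and without OL replicate 1, OPC replicate 2 or OPC replicate 4. The interval takes in no difference as well as differences of either sign.

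The median log2 fold change of the 3 tested regions was 0.30, beside -0.01 over all tested regions, and 2 of the 3 values were positive, as were 49.4% of all. OL and OPC values overlapped at all 5 regions. Of the 557 tested regions 7.00% had every OL library above every OPC library and 13.5% the reverse. With library sizes set by all tags instead, the median of all regions moved to -0.35. The values were then 0.16 ± 0.64 (SE) at Dusp5, 0.21 ± 0.66 at Homer1 and -0.25 ± 0.70 at Nr4a1. Each lay above that median by less than its SE. With TMM scaling Nr4a1, at -0.08, lay below the median of all regions.

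Without the filter on reads, Nr4a3 had a log2 fold change of 1.61 ± 0.74 (SE; edgeR adjusted p = 0.241, unadjusted p = 0.0474) and Arc of 0.80 ± 0.65 (edgeR adjusted p = 0.537). At Nr4a3 the normalised counts were 5.62, 30.4 and 3.45 in OL replicates 1, 2 and 4 and 3.10, 1.81, 1.78 and 3.93 in OPC replicates 1 to 4. The high value belongs to the 5 reads of OL replicate 2, and the lowest OL library lay inside the OPC range. At Arc the normalised counts were 6.42, 6.08 and 3.45 in OL and 5.42, 1.81, 2.68 and 2.81 in OPC, where OPC replicate 1 lay above OL replicate 4.

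**Figure D4:**
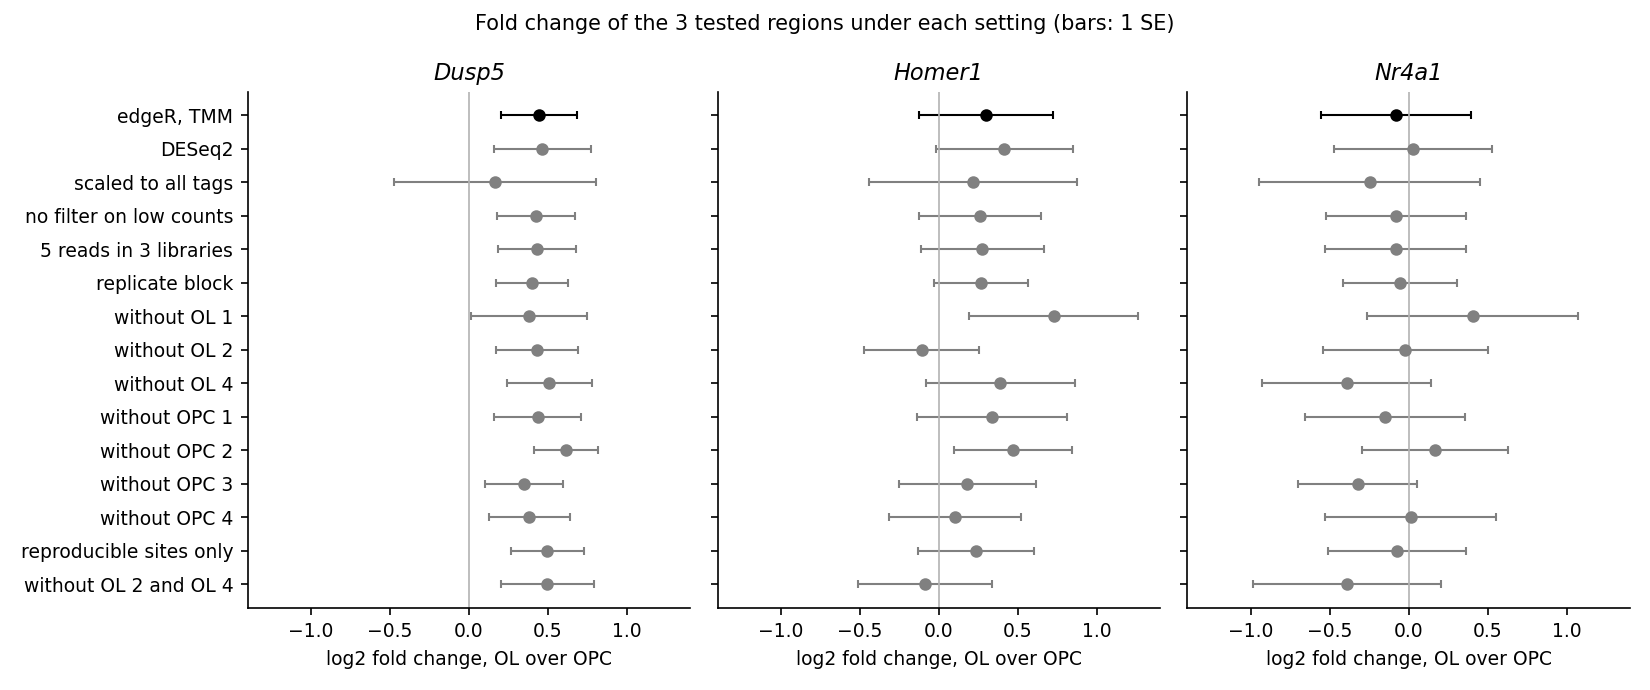
Log2 fold change of OL over OPC with 1 SE at Dusp5, Homer1 and Nr4a1 by edgeR with TMM scaling (black) and under each other setting (grey). Dusp5 stays positive in all of them, from 0.16 to 0.62, whereas Homer1 runs from -0.11 to 0.73 and Nr4a1 from -0.39 to 0.40.

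Other genes of the same pathways were followed through lists of 107 gene names, some given under an older and a newer symbol. The consensus annotation names 739 genes in all, at any distance. The share of all annotated genes with a region was not computed, so no list count below is read as high or low. Of the 3 Nr4a receptors, Nr4a2 had no consensus region within 10 kb. Of 11 MAP kinase phosphatases only Dusp5 had one, and of 15 genes of Homer, Arc and their partners 3 did, the third being Dlg4, a postsynaptic scaffold. The Dlg4 region (chr10:56629563-56629674, intron) was called in 2 libraries and held 14, 2 and 2 reads in OL and 9, 8, 8 and 14 in OPC. Among 43 names of further activity-regulated effectors Rheb, a GTPase upstream of mTOR, and Ppp1r15a, a regulatory subunit of a phosphatase in the stress response, had a region, each called in 1 library, and the log2 fold change at Ppp1r15a was 0.12 ± 0.44 (SE). Of 8 names of SRF cofactors 0 had one.

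Immediate early transcription factors, with 27 names, had a region at 9 genes and a reproducible site at 7, namely Egr1, Egr2, Egr3, Fos, Fosb, Junb and Srf. Log2 fold changes of OL over OPC were 0.63 ± 0.27 (SE) at Egr1, 0.76 ± 0.23 at Egr2, 0.81 ± 0.24 and 0.23 ± 0.27 at the 2 sites of Egr3, 0.51 ± 0.40 at Fosb, 0.30 ± 0.25 at Fos, 0.06 ± 0.23 at Junb and 0.47 ± 0.41 at the promoter of Srf. Egr4 and Fosl1 had a region called in 1 library, and the log2 fold change at Egr4 was 0.32 ± 0.55 (SE). A further Srf region, in an intron and called in 1 library, had a log2 fold change of 0.25 ± 0.51 (SE). Over all lists without the 5 genes, 11 regions were tested, 0 passed as higher or lower in OL by edgeR, 0 by DESeq2, and 3 had an unadjusted edgeR p below 0.05, as did 21.9% of all regions. The log2 fold change was above 0 at all 11 by edgeR (median 0.32), where 49.4% of all regions were above 0, and at all 11 by DESeq2, where 51.7% were. When scaled to all tags it was above 0 at 8 of the 11, and at 25.1% of all regions. These counts of signs are a description with no test. The lists were chosen with earlier results of these data known, the regions share the same libraries, and Egr3 and Srf each gave more than 1 of the 11.

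The regions whose reads followed those of the 3 tested ones were ranked by the Pearson correlation of log2 CPM over the 7 libraries. These values are a description, and the points share libraries, depth and scaling. Named are the 3 highest among all other tested regions, so high values come in part from the selection. The spread of the other correlations is not given. For Dusp5 they were the regions at Egr2 (r = 0.91), AC127013.1 (r = 0.90) and Mob3a (r = 0.88). For Homer1 they were those at Mpdu1 (r = 0.97), Fosb (r = 0.96) and Fos (r = 0.93), which were 0.89, 0.86 and 0.76 without OL replicate 2. For Nr4a1 they were those nearest Sumf1 (r = 0.93), Pabpc1 (r = 0.89) and Alg14 (r = 0.80), the last being 0.55 without OPC replicate 3. Among the 3 regions themselves r was 0.69 between Dusp5 and Homer1, 0.37 between Nr4a1 and Dusp5 and 0.00 between Nr4a1 and Homer1.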

How the data were processed

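SRF ChIP-seq of 3 OL and 4 OPC libraries and 1 IgG library per stage was used; the inputs entered only through MACS. Per the labels' protocols, reads were single, 75 bp long, after 12 PCR cycles. Build Rnor_6.0, BWA, Trim Galore, HOMER, deepTools and MACS2 are listed, without versions or roles, in the submitters' processing notes. Peaks come from MACS 2.2.7.1, run by the authors on single libraries with an input as control, a q-value limit of 0.05 and no removal of duplicates at that step, per the file headers. The deposited peak tables give pileup signal, fold enrichment ratio and −log10 p and q. The deposited counts over 848 regions are whole reads which featureCounts 2.0.1 assigned where 0.2 or more of a read lay in a region, per the file headers. The distances to the TSS are the authors' deposited annotation.

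A region was called in a library whose peak overlapped it by at least 1 bp. Regions with at least 10 reads in 3 libraries (557) were tested in edgeR 4.0.16 (R 4.3.3; TMM, quasi-likelihood, Benjamini-Hochberg), with DESeq2 1.42.0 as an alternative; SEs follow from the F statistic. For the OL and OPC comparison, counts were simulated for the 557 regions with 200 of them changed, and 536 passed the read filter again. Among those 536, edgeR passed 6 of 75 changed 1.5-fold, 25 of 57 changed 2-fold, 49 of 57 changed 4-fold and 3 of 347 unchanged. Simulated regions that failed the filter are not in these counts. Poisson intervals used scipy 1.17.1. The deposited OL library named R3 is replicate 4 by its sample title. Each preparation was split between stages, per the labels, so replicate numbers were taken as pairs; deviations of same-numbered libraries correlated at 0.09, 0.27 and 0.16 for numbers 1, 2 and 4, and those of unlike-numbered libraries at -0.32 to 0.28, the highest being OL replicate 1 with OPC replicate 4, so the data alone do not show the pairing.

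The members and lists were chosen with earlier results of these data known. Named are the 5 genes, list genes with a region within 10 kb of the TSS, and the 3 regions most correlated with each tested one.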

Additional observations from a re-analysis of the deposited data

How the results depend on the processing

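In all 14 other fits 0 of the member regions passed at an adjusted p below 0.05, and the 15 calls became 13 where the peak had to cover 0.5 of the region, 11 to 15 with 1 library left out, and 15 otherwise. The median log2 fold change of Dusp5, Homer1 and Nr4a1 was 0.30 and ran from -0.02 without OL replicate 2 to 0.47 without OPC replicate 2, and it was -0.09 without both shallow OL libraries, an alternative chosen after seeing the data in which 1 OL library remained and was assumed to vary like OPC. Dusp5 was positive throughout. Nr4a1 turned positive by DESeq2 (0.025) and ran from -0.39 to 0.40 when libraries were left out one at a time; Homer1 ran from -0.11 to 0.73, and was -0.086 without both shallow OL libraries. The replicate block pairs OL and OPC of a preparation. With it the log2 fold changes were 0.40 ± 0.23 (SE) at Dusp5, 0.27 ± 0.30 at Homer1 and -0.05 ± 0.36 at Nr4a1. Their 95% intervals were -0.12 to 0.92, -0.42 to 0.95 and -0.89 to 0.78 in the same gene order, and no member's call changed. The count over all regions was 12 (2 higher and 10 lower in OL) by the edgeR fit without the block, 42 by DESeq2 (29 higher and 13 lower), 0 with the replicate block (106 at an unadjusted p below 0.05), 0 scaled to all tags (40 at an unadjusted p below 0.05), 22 without a filter, 19 at 5 reads in 3 libraries, 35 among reproducible sites (17 higher and 18 lower), 1 to 31 with 1 library left out (OPC replicate 4 gave 1, OPC replicates 1 and 2 gave 4 each, OL replicate 4 gave 6, OL replicate 2 gave 7, OPC replicate 3 gave 14 and OL replicate 1 gave 31, split into 28 higher and 3 lower) and 1 when both shallow libraries were left out; the cause was not tested. The 5 regions held 1 to 11 reads in OL replicates 2 and 4, and the part of depth in the stage comparison was not tested.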
